A study of Rattus norvegicus with 46 samples.

Results

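The 6 genes described here encode secreted proteins that sit in or act on the extracellular matrix of the heart: periostin (Postn), osteopontin (Spp1), thrombospondin 4 (Thbs4), fibronectin (Fn1), SPARC or osteonectin (Sparc) and clusterin (Clu). Every probe set of the array annotated to exactly one of these symbols was taken, which gave 13 of 8740 probe sets and 6 of 4736 genes. Fn1 had 5 probe sets and Sparc had 4, and each of the other genes had 1. None of the values of the 13 lay under the floor of 16 intensity units. Only 0.0303% of all values on the arrays did, so this does not show that a transcript was detected.

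The study compared ventricular gene expression in rat models of cardiac hypertrophy on 46 Affymetrix arrays, each hybridised with 1 pool of RNA, so a p-value here reflects variation between pools and not between animals. The adult animals were male Wistar rats, and the RNA of all 46 arrays was labelled as left ventricle. Pressure overload was produced by a clip on the aorta and sampled after 6, 12 or 16 weeks, with 2 arrays at each time, and after 30 weeks, with 4 arrays. Myocardial infarction was produced by ligation of a coronary artery and sampled after 3 and 9 weeks, with 4 arrays at each time. The scar was cut away, so that the arrays show the remaining muscle. Volume overload was produced by an opening made from the aorta into the caval vein and was sampled after 3 and 8 weeks, with 2 arrays each. Every surgical group had 2 arrays of its own from rats operated on in the same way without the clip, ligature or puncture. Angiotensin II, a pressor peptide given by osmotic pump, and Ditpa, a thyroid hormone analogue given under the skin, were each sampled after 2 weeks with 2 arrays, and both were compared with the same 2 vehicle arrays. The labels call the Ditpa treatment an infusion, whereas the study's methods describe it as injections. The vehicle arrays are labelled as infusion of saline. In the methods, controls for angiotensin II had pumps with vehicle, and those for Ditpa had saline. Ditpa and vehicle arrays may therefore differ in route as well. The results for angiotensin II and Ditpa are not independent of each other. The 2 neonatal arrays were from the left ventricle of pups and had no control group of their own, so they were set against the mean of the 9 adult control groups. In bulk tissue, fewer cells of a type and less RNA per cell cannot be told apart.

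Matricellular proteins are secreted into the matrix but serve mainly to signal to cells rather than to bear load. They bind integrins and other surface receptors, growth factors and collagen, and are known for low expression in the resting adult heart and for high expression during development and after injury. Periostin, osteopontin, thrombospondin 4 and SPARC belong to this class. Fibronectin is a structural glycoprotein of the provisional matrix to which several of them bind, and clusterin is an extracellular chaperone that binds misfolded proteins and complement.

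Promoter sequence is shown for Postn, Spp1 and Thbs4, the members with the largest mean effect over the surgical groups. Each of them rose in banding and after infarction. Fn1 X05834_at and Clu did so as well, but the promoter annotation held no entry for Fn1 or Clu. Each window covers the 250 bases before the transcription start in the RefSeq annotation of build GRCr8, written 5′ to 3′ on the strand of the gene. Postn is at chr2:140677811-140678060 on the plus strand, Spp1 at chr14:5619805-5620054 on the minus strand, and Thbs4 at chr2:25760346-25760595 on the minus strand. Capitals mark matches on either strand to any of 6 short motifs. These are TATAAA as the TATA box, CAGAC as the core bound by Smad proteins, GGGCGG as the Sp1 box, CATTCC as the TEAD motif, TGTGGT as the Runx motif and TGANTCA as the AP-1 motif.
Postn: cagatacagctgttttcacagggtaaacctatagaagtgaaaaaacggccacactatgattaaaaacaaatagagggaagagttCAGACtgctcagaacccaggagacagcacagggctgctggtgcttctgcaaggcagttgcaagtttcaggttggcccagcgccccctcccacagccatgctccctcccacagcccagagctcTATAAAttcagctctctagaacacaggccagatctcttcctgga
Spp1: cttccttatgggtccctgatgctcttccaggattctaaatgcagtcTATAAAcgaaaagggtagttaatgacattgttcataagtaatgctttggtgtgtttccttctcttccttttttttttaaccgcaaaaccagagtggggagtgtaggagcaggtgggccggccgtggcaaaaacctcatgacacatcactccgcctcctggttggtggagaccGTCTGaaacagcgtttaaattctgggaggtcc
Thbs4: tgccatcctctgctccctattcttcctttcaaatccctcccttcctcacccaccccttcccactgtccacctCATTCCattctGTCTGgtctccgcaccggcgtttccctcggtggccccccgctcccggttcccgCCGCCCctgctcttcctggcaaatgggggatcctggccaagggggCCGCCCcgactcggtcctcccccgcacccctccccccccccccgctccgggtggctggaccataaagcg
The Postn window held 1 TATAAA, whose first letter lay 44 bases before the start, and 1 CAGAC. The Spp1 window also held 1 TATAAA, but 204 bases before the start, and 1 CAGAC read on the opposite strand. The Thbs4 window held no TATAAA, and had 1 CAGAC, 1 CATTCC and 2 GGGCGG. The motif present in all 3 windows was CAGAC, and 42.9% of the 33469 promoters of the same length hold it. TATAAA occurs in 12.9%, GGGCGG in 30.5%, CATTCC in 12.1%, TGTGGT in 14.5% and TGANTCA in 6.34% of these promoters. A match is a description of the letters and not a binding site.

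Averaged over the 10 treated groups with equal weight, 7 of the 13 probe sets rose and 0 fell. Over all 8740 probe sets, 5.21% were called in either direction and 3.64% were called higher, where a call is a Benjamini-Hochberg adjusted p below 0.05 in limma. The median effect of the 13 was 0.23 log2 against 0.01 for all probe sets. Effects are log2 differences in intensity between treated arrays and their own controls, with standard errors. The 7 belonged to all 6 genes: the only probe sets of Postn, Spp1, Thbs4 and Clu, 2 of 5 for Fn1 and 1 of 4 for Sparc.

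Postn encodes an integrin-binding protein that fibroblasts secrete when they are activated. In the 18 control arrays its log2 intensity had a lowest value of 6.57, a median of 6.93 and a highest value of 7.61, and its mean percentile among the probe sets of a control array was 2.84. In the 26 hypertrophic arrays the lowest value was 7.04, the median 8.45 and the highest 11.11. Of these arrays 25 lay above the mean of their own controls, the exception being replicate 2 of the Ditpa group. The average effect was 1.42 ± 0.178 log2, a 2.68-fold increase (limma adjusted p = 2.42e-06).

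The size of the change in Postn differed between groups. At 6 weeks of banding the treated arrays were at 9.46 and 9.35 and the sham arrays at 7.16 and 6.85. At 12 weeks the treated arrays were at 8.03 and 8.55 against 6.57 and 6.90, at 16 weeks at 9.12 and 8.19 against 6.84 and 6.65, and at 30 weeks at 8.88, 8.67, 8.73 and 8.25 against 7.61 and 6.78. No banding array overlapped its sham arrays at any time, and over the 10 treated groups 8 had every treated array above both controls, which 0.584% of all probe sets reached in at least 8 groups. The banding effect was 1.82 ± 0.269 log2 (adjusted p = 2.47e-05). After infarction the 3-week arrays were at 9.33, 9.14, 9.49 and 9.73 against 7.59 and 7.23, and the 9-week arrays at 11.11, 9.81, 8.30 and 7.82 against 6.81 and 6.94. The infarction effect was 2.20 ± 0.340 log2 (adjusted p = 1.78e-04). All 8 infarction arrays lay above their sham arrays, but the 4 arrays at 9 weeks were spread from 7.82 to 11.11. In the shunt the arrays were at 8.01 and 7.04 against 7.15 and 6.79 after 3 weeks, where the groups overlapped, and at 7.66 and 8.03 against 7.13 and 6.92 after 8 weeks. Both angiotensin II arrays were at 8.34, above the vehicle arrays at 7.34 and 7.53, whereas the Ditpa arrays at 8.05 and 7.31 lay on either side of them. The effects of 0.69 ± 0.393 in the shunt (adjusted p = 0.655), 0.91 ± 0.556 with angiotensin II and 0.25 ± 0.556 with Ditpa (adjusted p = 1 for both) did not pass.

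**Figure D1:**
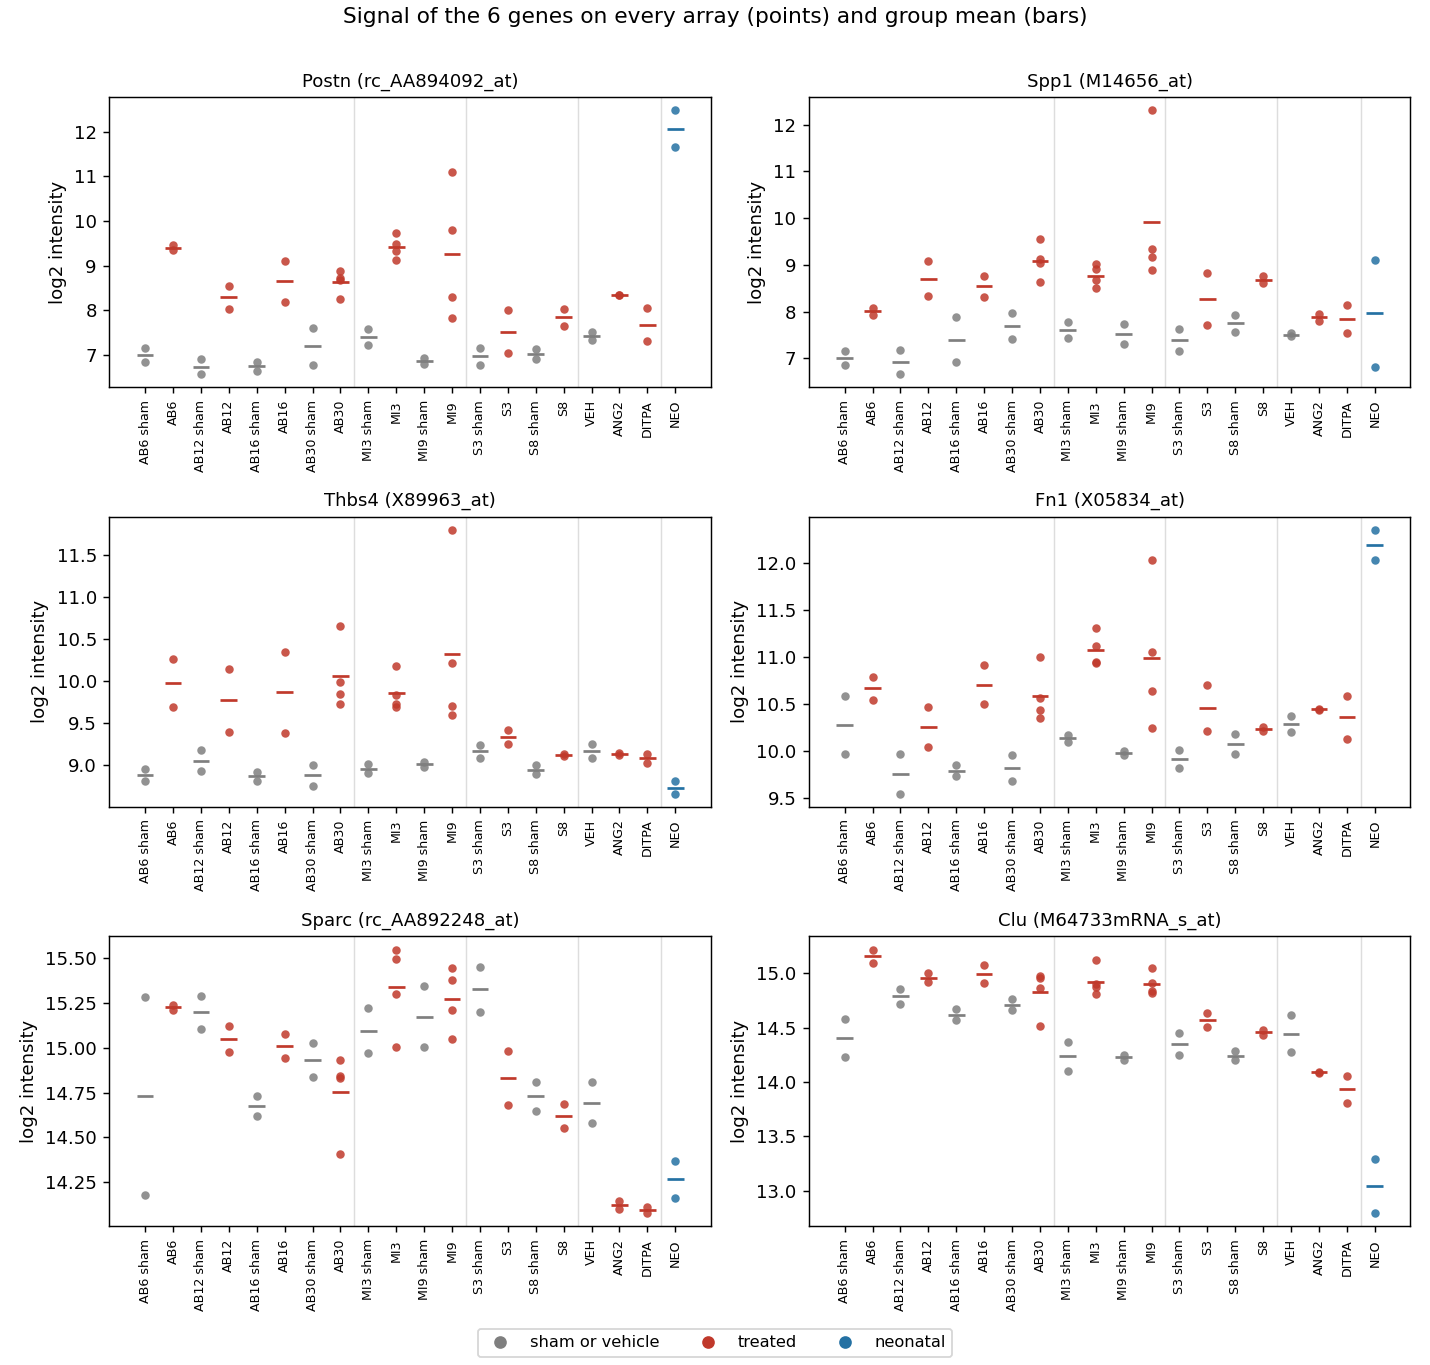
Log2 intensity of the brightest probe set of each of the 6 genes (vertical axis) on all 46 arrays, grouped by treatment and time (horizontal axis; AB, aortic banding; MI, infarction; S, shunt; VEH, vehicle; ANG2, angiotensin II; NEO, neonatal; numbers are weeks). Points are arrays and bars are group means; the neonatal arrays of Postn, at 12.47 and 11.66, lie above every adult array, and replicate 1 at 9 weeks of infarction is the highest adult array for Postn, Spp1, Thbs4 and Fn1.

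Spp1 encodes osteopontin, a secreted phosphoprotein of bone, activated macrophages and injured muscle that binds integrins and CD44. Its control values had a lowest value of 6.66, a median of 7.46 and a highest value of 7.98, with a mean percentile of 4.68. The hypertrophic arrays had a lowest value of 7.54, a median of 8.71 and a highest value of 12.30. All 26 lay above the mean of their own controls, and in 9 of the 10 groups every treated array lay above both control arrays, which 0.286% of all probe sets did. The exception was Ditpa, with 7.54 and 8.15 against vehicle values of 7.47 and 7.54. The average effect was 1.14 ± 0.209 log2, or 2.20-fold (adjusted p = 5.55e-04).

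By model, the effect on Spp1 was 1.33 ± 0.316 log2 in banding (adjusted p = 0.00838) and 1.78 ± 0.400 after infarction (adjusted p = 0.0110). The 30-week banding arrays were at 9.55, 9.13, 9.04 and 8.64 against 7.98 and 7.41, with an SD of 0.37. The 3-week infarction arrays were at 8.67, 8.90, 9.01 and 8.50 against 7.78 and 7.44, with an SD of 0.23. At 9 weeks of infarction the arrays were at 12.30, 9.34, 9.17 and 8.90 against 7.31 and 7.74, so that 1 array stood far above the others of its group. In the shunt the arrays were at 8.83 and 7.72 after 3 weeks against 7.63 and 7.16, and at 8.60 and 8.76 after 8 weeks against 7.93 and 7.58. That effect, 0.90 ± 0.462, did not pass (adjusted p = 0.602). Angiotensin II gave 0.38 ± 0.654 and Ditpa 0.34 ± 0.654 (adjusted p = 1 for both).

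Thbs4 encodes a thrombospondin of tendon and muscle matrix that is also found within the secretory pathway of stressed heart muscle. Its 18 control arrays were close together, with a lowest value of 8.75, a median of 8.98 and a highest value of 9.25. In banding the treated arrays were at 10.25 and 9.69 after 6 weeks, 9.39 and 10.14 after 12 weeks, 10.34 and 9.38 after 16 weeks, and 9.99, 10.65, 9.85 and 9.72 after 30 weeks. Every one of these 10 arrays was above the highest control array of any group. After infarction the values were 9.83, 9.69, 9.73 and 10.18 at 3 weeks and 11.79, 10.21, 9.70 and 9.59 at 9 weeks, again all above every control. The effects were 1.00 ± 0.193 in banding (adjusted p = 0.00109) and 1.11 ± 0.244 after infarction (adjusted p = 0.00895). In the shunt the arrays were at 9.42 and 9.24 after 3 weeks and at 9.13 and 9.10 after 8 weeks, with an effect of 0.17 ± 0.282 (95% interval -0.40 to 0.75). The hormone arrays were at 9.12 and 9.14 for angiotensin II and at 9.13 and 9.02 for Ditpa, between or just under the vehicle values of 9.08 and 9.25, and 0 of these 4 arrays lay above the vehicle mean. The effects were -0.04 ± 0.399 (95% interval -0.85 to 0.78) and -0.09 ± 0.399 (-0.90 to 0.72). The spread used for them was pooled over all 20 groups and is wider than that of the hormone arrays. The SD of Thbs4 was 1.02 at 9 weeks of infarction, against 0.017 with angiotensin II, 0.079 with Ditpa and 0.12 with vehicle. The upper ends of these intervals lie below the banding estimate of 1.00 and within its interval of 0.60 to 1.39. Averaged over all 10 groups, Thbs4 rose by 0.64 ± 0.128 log2, or 1.56-fold (adjusted p = 0.00137), and 22 of 26 arrays lay above their controls.

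Fn1 encodes fibronectin, whose transcript is spliced into several forms, and its 5 probe sets did not move alike. X05834_at, the brightest, had 18 control values with a lowest value of 9.54, a median of 9.96 and a highest value of 10.59. Its 26 hypertrophic values had a lowest value of 10.04, a median of 10.55 and a highest value of 12.03, and 25 of them lay above the mean of their controls. The average effect was 0.55 ± 0.102 log2 (adjusted p = 6.32e-04), with 0.65 ± 0.154 in banding (adjusted p = 0.00818) and 0.98 ± 0.194 after infarction (adjusted p = 0.00327). The 3-week infarction arrays were at 10.93, 10.94, 11.31 and 11.12 against 10.10 and 10.17, and the 9-week arrays at 12.03, 11.06, 10.64 and 10.24 against a sham mean of 9.97. The shunt (0.35 ± 0.224), angiotensin II (0.15 ± 0.317) and Ditpa (0.07 ± 0.317) effects did not pass. U82612cds_g_at rose by 0.19 ± 0.0506 on average (adjusted p = 0.0233) and was above its controls on 25 of 26 arrays. The call of U82612cds_g_at was lost when either vehicle array, replicate 3 of the 3-week shunt sham group or replicate 1 of the 6-week banding group was left out (adjusted p = 0.0514 to 0.0669). The other 3 did not pass, at 0.11 ± 0.0493 for U82612cds_at, 0.01 ± 0.0495 for M28259cds_at and 0.02 ± 0.0425 for X05831cds_at. Over the 26 ratios of treated array to control mean, X05834_at had a Pearson r of 0.45 with U82612cds_g_at and between -0.11 and 0.25 with the other 3, all measured on the same arrays. With the mean of the 5 probe sets in place of the brightest, the infarction effect was 0.24 log2 and did not pass (adjusted p = 0.120). The part of the transcript that each probe set covers was not analysed here.

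Clu was among the brightest probe sets, at rank 91 of 8740 by mean signal. It rose by 0.23 ± 0.0501 log2 on average (adjusted p = 0.00302), with 21 of 26 arrays above their controls. In the surgical models 7 of 8 groups had every treated array above both sham arrays, and 1.42% of all probe sets did so in at least 7 of the 10 groups. After infarction the 3-week arrays were at 14.81, 14.87, 15.12 and 14.90 against 14.37 and 14.11, and the 9-week arrays at 15.05, 14.92, 14.84 and 14.82 against 14.21 and 14.25, an effect of 0.68 ± 0.0957 log2 (adjusted p = 3.94e-05). Replicate 1 at 9 weeks, the highest adult array for Postn, Spp1, Thbs4 and Fn1 X05834_at, was close to the others of its group here. In banding the effect was 0.35 ± 0.0757 (adjusted p = 0.00324), with the widest gap at 6 weeks (15.22 and 15.10 against 14.23 and 14.58) and overlapping values at 30 weeks (14.98, 14.96, 14.86 and 14.51 against 14.76 and 14.66). After quantile normalization the banding effect was 0.18 and no longer passed (adjusted p = 0.0719), while that of infarction was 0.45 and passed (adjusted p = 5.48e-04). The 4 hormone arrays, at 14.09, 14.09, 13.81 and 14.06, lay below both vehicle arrays at 14.62 and 14.27.

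Sparc encodes a collagen-binding protein of matrix-producing cells, and its brightest probe set behaved unlike the other 3. For rc_AA892248_at, at rank 45 of 8740, the 18 control values had a lowest value of 14.18, a median of 14.99 and a highest value of 15.45, and the hypertrophic values had a lowest value of 14.08, a median of 14.98 and a highest value of 15.55. Its average effect was -0.09 ± 0.0702 (adjusted p = 0.590), and 11 of 26 arrays lay above their controls. The average effects of Y13714_at, rc_AA946313_s_at and rc_AA891204_s_at were 0.23 ± 0.0959, 0.27 ± 0.0739 and 0.28 ± 0.110, with 21, 23 and 22 arrays above their controls. Of these, rc_AA946313_s_at rose (adjusted p = 0.0238), but not after quantile normalization (0.23, adjusted p = 0.0654) nor without replicate 2 of the 3-week infarction sham group, replicate 5 of the 30-week banding sham group or vehicle replicate 2 (adjusted p = 0.0515 to 0.104). Over the 26 ratios Y13714_at and rc_AA891204_s_at had a Pearson r of 0.95 with each other. The r of rc_AA946313_s_at was lower, at 0.47 with Y13714_at and 0.44 with rc_AA891204_s_at. The r of rc_AA892248_at with its 3 companions ran from -0.23 to 0.09, and the genes of most similar pattern were COX3 (0.99) and COX1 (0.98), of the mitochondrial respiratory chain, Cox8b (0.97), of the same complex, and Atp2a2 (0.97), the calcium pump of muscle. Whether rc_AA892248_at measures Sparc was not tested, and statements on Sparc below rest on the other 3 probe sets unless it is named.

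**Figure D2:**
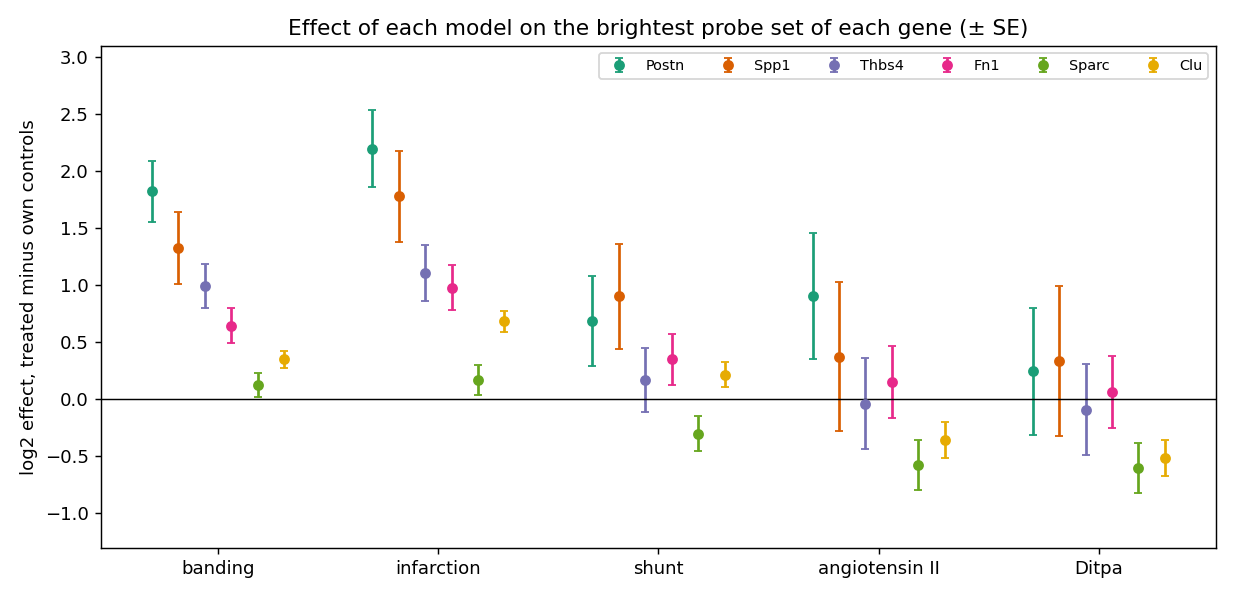
Log2 effect of each of the 5 models (horizontal axis) on the brightest probe set of each of the 6 genes, as treated minus own controls (vertical axis), with standard errors as bars. Postn, Spp1, Thbs4 and Fn1 have their largest values in banding and infarction, and the effects of angiotensin II and Ditpa use the same 2 vehicle arrays.

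Counted by model, 5 of the 13 probe sets rose in banding and 5 after infarction, where 5.26% and 1.96% of all probe sets were called. In both they were the brightest probe sets of Postn, Spp1, Thbs4 and Fn1, and that of Clu. In the shunt 0 of 13 were called by limma, where 0.0458% of all were, and 4 had an unadjusted p below 0.05, against 8.6% of all. With angiotensin II and with Ditpa 0 of 13 were called, where 0% of all probe sets were, and 2 had an unadjusted p below 0.05 in each, against 3.49% and 3.2% of all. In single groups limma called all 5 of these genes at 9 weeks of infarction (1.92% of all probe sets), Postn and Clu at 6 weeks of banding (0.652%) and Clu at 3 weeks of infarction (0.206%). The 5 calls after infarction used a spread estimated over all 20 groups. Fitted on the 12 arrays of the infarction groups and their shams alone, the effects were the same and only Clu passed (adjusted p = 0.00236), with Postn at 0.0506, Fn1 at 0.108, Spp1 at 0.146 and Thbs4 at 0.168. Without replicate 2 of the 3-week sham group, the infarction calls of Spp1 (adjusted p = 0.0906) and Thbs4 (0.0750) were lost, and likewise without replicate 5 of the 9-week sham group (0.0887 and 0.0581).

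The average rests unequally on the models, since 6 of the 10 groups were banding or infarction groups. With the 5 models weighted equally the effect of Postn was 1.17 (adjusted p = 0.00641), and it was the only one of the 13 that passed, with Spp1 at 0.95 (adjusted p = 0.0758), Fn1 at 0.44 (0.0950), Thbs4 at 0.43 (0.265) and Clu at 0.08 (0.940). Without the banding groups, Postn at 1.16 (adjusted p = 0.0350) and Sparc rc_AA946313_s_at at 0.40 (0.0475) passed, and Spp1 (0.139), Thbs4 (0.338), Fn1 (0.108) and Clu (0.312) did not. Without the infarction groups Clu was lost (0.12, adjusted p = 0.435), as were U82612cds_g_at (0.0839) and rc_AA946313_s_at (0.245). Without the shunt groups U82612cds_g_at (0.18, adjusted p = 0.0662) and rc_AA946313_s_at (0.21, adjusted p = 0.185) were also lost. In the exact rank sum test named in the study's methods, of the 26 treated against the 18 control ratios, 4 of the 13 passed after Bonferroni correction, as 1.34% of all probe sets did: Spp1 (corrected p = 3.31e-06), Postn (7.63e-05), Fn1 X05834_at (2.47e-04) and Thbs4 (0.0187). In an exact signed rank test of the 26 treated ratios, also with Bonferroni correction, the same probe sets and Fn1 U82612cds_g_at passed. Ratios within a group share control arrays, so the values in both rank tests are not independent. Their p-values can therefore be too small.

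Whether the models differed from each other was tested directly. In a moderated F test over the 5 models 1 of the 13 passed, Clu (F = 11.9, adjusted p = 0.00493), where 0.275% of all probe sets did. The mean of the 3 surgical models minus that of the 2 hormone treatments was also called for Clu alone, at 0.85 ± 0.146 log2 (adjusted p = 0.00242), where 0.229% of all were. Both calls were lost without vehicle replicate 1 (adjusted p = 0.101 and 0.311) and after quantile normalization (0.507 and 1), which brought the surgical minus hormone difference to 0.30. The same difference was 1.00 ± 0.519 for Postn, 0.98 ± 0.611 for Spp1, 0.82 ± 0.373 for Thbs4 and 0.55 ± 0.296 for Fn1, with 95% intervals from -0.06 to 2.05, -0.26 to 2.23, 0.06 to 1.58 and -0.05 to 1.15, and none of the 4 passed after adjustment (adjusted p = 0.924 for Thbs4 and 1 for the others). Weighting the arrays by their estimated quality added calls. With array weights, Thbs4 (0.80, adjusted p = 0.0435) and Sparc rc_AA892248_at (0.58, adjusted p = 0.0225) also passed for surgical minus hormone models, and Postn (F = 8.18, adjusted p = 0.0155), Thbs4 (F = 6.91, adjusted p = 0.0283) and Sparc rc_AA892248_at (F = 6.43, adjusted p = 0.0366) passed between the models.

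The brightest probe sets of an array moved as a block, which bears on Clu and on rc_AA892248_at. The 100 brightest probe sets had a median effect of -0.55 log2 with angiotensin II and -0.57 with Ditpa, and all 100 were below 0 in both. Their median was 0.13 in banding, 0.47 in its 6-week group, 0.09 after infarction and -0.22 in the shunt. The highest intensity on an array was 22581 to 23633 in the 4 hormone arrays, and reached 64884 in the 6-week banding group. Against these medians, Clu was at -0.36 with angiotensin II and -0.51 with Ditpa, and rc_AA892248_at at -0.57 and -0.60. After quantile normalization the medians were -0.02 for both hormones, and Clu was at 0.13 and -0.10. The part of scaling in the difference of Clu between models was not tested further.

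**Figure D3:**
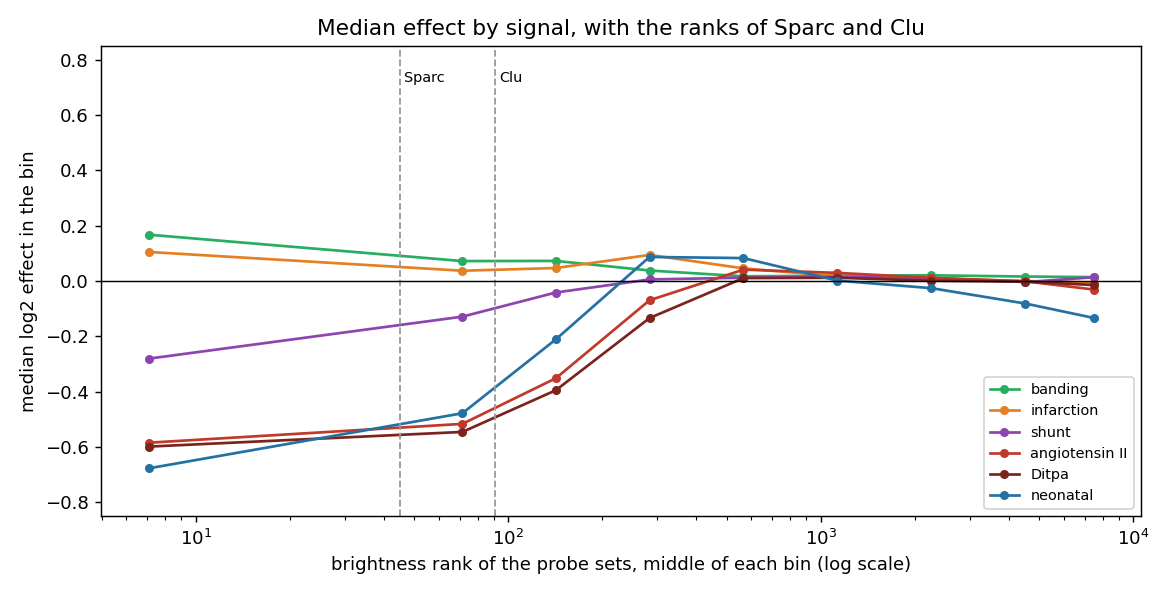
Median log2 effect (vertical axis) of probe sets binned by brightness rank (horizontal axis, log scale, 1 the brightest) for the 5 models and for the neonatal minus adult difference. The 50 brightest probe sets have a median of -0.58 with angiotensin II, -0.60 with Ditpa and -0.68 in neonatal hearts, beyond rank 400 all lines lie between -0.13 and 0.08, and dashed lines mark the ranks of rc_AA892248_at (Sparc, 45) and Clu (91).

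No difference between times was called. The effect at 9 weeks of infarction minus that at 3 weeks was 1.24 ± 0.801 for Spp1, 0.42 ± 0.488 for Thbs4, 0.38 ± 0.681 for Postn, 0.08 ± 0.388 for Fn1 and -0.01 ± 0.191 for Clu. The sign of several of these rested on replicate 1 at 9 weeks, without which the difference was 0.45 for Spp1, -0.07 for Thbs4, -0.24 for Postn, -0.27 for Fn1 and -0.06 for Clu (adjusted p = 0.992 to 0.999). By limma 0 of the 13 were called, as were 0% of all probe sets, and 0 of the 13 had an unadjusted p below 0.05, against 5.82% of all. Between the 4 banding times 0 of 13 were called in a moderated F test, as were 0% of all, and Clu (F = 3.67, adjusted p = 0.683) and 2 Sparc probe sets had an unadjusted p below 0.05, against 7.13% of all. Without replicate 4 of the 6-week sham group, Sparc rc_AA892248_at was called between banding times (F = 9.17, adjusted p = 0.0481) and between models (F = 8.36, adjusted p = 0.0176). Between the 9 control groups, again 0 of 13 were called, where 6.58% of all probe sets were, and Clu came closest (F = 3.70, adjusted p = 0.0552) and passed after quantile normalization (adjusted p = 0.0229).

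Replicate 1 at 9 weeks of infarction stood apart. Relative to the mean of its 2 sham arrays it was higher by 4.78 log2 for Spp1, 4.24 for Postn, 2.79 for Thbs4 and 2.06 for Fn1 X05834_at, the highest of the 26 ratios for each of the 4. On the same array Lyz2, the lysozyme of macrophages, was higher by 3.13, the galectin gene Lgals3 by 2.93, C1qb, a complement component of macrophages, by 2.31 and the protease gene Ctss by 2.06. The summed intensity of 12 macrophage genes was 51531.5 on this array, against 19133.9 to 24526.8 on the other 3 arrays of its group and 14279.3 to 23940 on the control arrays. The sum of 11 fibroblast genes was 98302.9, against 64531.7 to 86485.5 on the other 3 and 38535 to 67647.3 on the control arrays. The sum of 13 cardiomyocyte genes was 451118, within the range of 431934 to 510975 of the other 3. Without this array the infarction effects were 1.89 for Postn, 1.39 for Spp1 and 0.86 for Thbs4, and all 3 passed (adjusted p = 3.08e-05, 0.00400 and 0.00279).

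Sums of markers of other cells were also compared in further groups, and the part of such cells in the results was not tested. At 3 weeks of infarction, where Postn and Fn1 were high on all 4 arrays, the fibroblast sum was 91314.2 to 115509, above every control array. In banding it was 44782 to 71847.5, which overlapped the control arrays at 38535 to 67647.3. That control range covers all 9 control groups, and its upper end is a vehicle array and not a banding sham array. Against the banding sham arrays 5 of the 11 measured genes of the fibroblast list rose and 0 fell, where 5.26% of all probe sets were called. The median of the list was 0.41 log2 against 0.02 for all probe sets. With angiotensin II the fibroblast sum was 56068.8 to 60524.9, below the vehicle arrays at 63881.5 to 67647.3. A sum of intensities is weighted towards its brightest genes. The 100 brightest probe sets of the array had a median of -0.55 log2 with angiotensin II. The median of the fibroblast list was 0.016 log2 there, against -0.002 for all probe sets. Of its 11 genes 0 were called, as were 0% of all probe sets. The macrophage sum was 18553.5 to 27348.1 in banding, 22388.3 to 27356.7 at 3 weeks of infarction and 26883.6 to 31170.7 with angiotensin II. The control arrays of all groups, at 14279.3 to 23940, overlapped the banding and 3-week infarction ranges and lay below the angiotensin II range. The upper end of this control range is again a vehicle array, and banding and infarction sums were not set against their own shams. In banding 1 of the 12 macrophage genes was called. No gene of these lists was at 0 on any array.

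**Figure D4:**
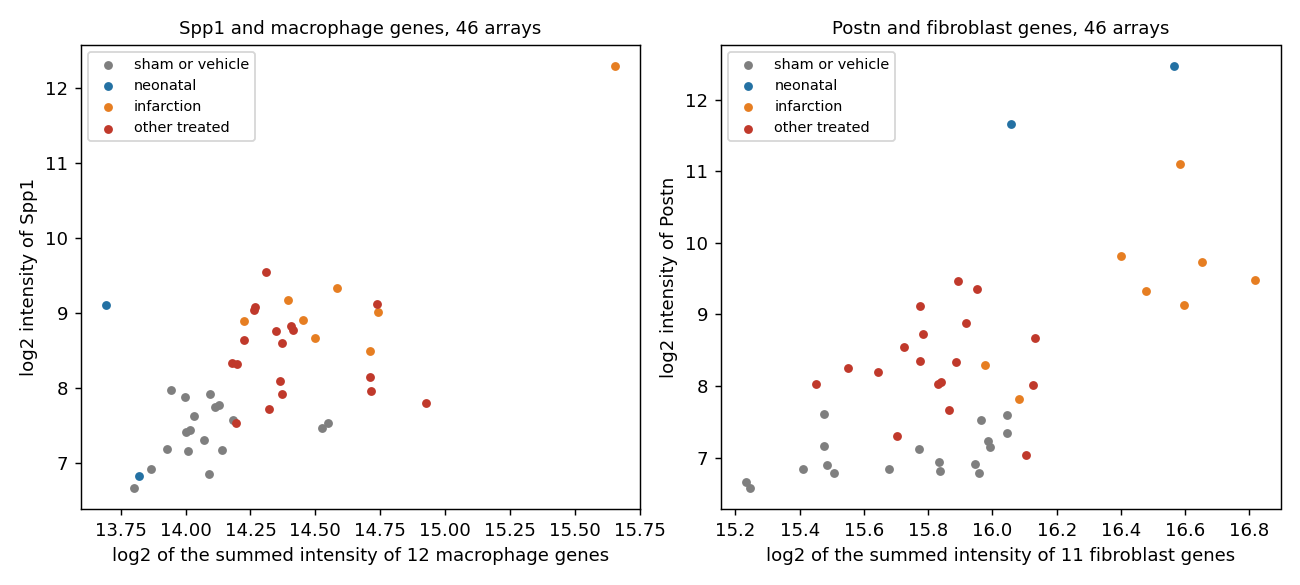
Log2 intensity of Spp1 against the log2 summed intensity of 12 macrophage genes (left) and of Postn against that of 11 fibroblast genes (right), 1 point per array and 46 arrays, coloured by kind of heart. The array at the upper right of the left panel, with Spp1 at 12.30, is replicate 1 at 9 weeks of infarction, and the 2 neonatal arrays lie at the top of the right panel and at the low end of the macrophage sums on the left.

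The pattern of each gene over the 26 ratios was compared with those of 4735 other genes. These correlations are descriptive, since ratios within a group share control arrays and all genes share each RNA pool. Postn was most like Aldh1a1, a retinaldehyde dehydrogenase (r = 0.87), Thbs4 (0.87), the calcium-binding protein gene S100a4 (0.84) and Bgn, a matrix proteoglycan (0.83). Spp1 was most like Lgals3, which encodes galectin 3 (0.93), C1qb (0.91), Fxyd2, a regulator of the sodium pump (0.85), and Atp2b3, a calcium pump of the cell surface (0.84). Thbs4 was most like Bgn (0.92), S100a10 (0.90), Cnp (0.89) and S100a4 (0.87), and Fn1 X05834_at like S100a10 (0.91), Cnp (0.89), Lyz2 (0.88) and Fxyd2 (0.87). Among the members, Postn, Spp1, Thbs4 and Fn1 X05834_at had r between 0.74 and 0.87 with each other. Replicate 1 at 9 weeks of infarction had the highest of the 26 ratios for each of them. It was kept in every r given here, and no r was computed without it. Clu had 0.51 to 0.69 with these 4 and 0.84 with rc_AA892248_at. It was most like Ankrd1, a stress-induced cardiac ankyrin repeat gene (0.95), Gpx1 (0.92), Rplp0 (0.91) and Cox5b (0.91).

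In neonatal hearts 8 of the 13 probe sets were higher and 2 lower than in adult controls. All of the 8 except that of Postn belonged to Fn1 or Sparc. Counted by the brightest probe set of each of the 6 genes, 2 were higher and 2 lower. In this comparison 32.6% of all probe sets were called, 15.5% higher and 17% lower. The median difference of the 13 was 0.72 log2, and that of all probe sets -0.07. Postn had the largest difference among the 13, with neonatal arrays at 12.47 and 11.66 against a highest adult control of 7.61, a difference of 5.02 ± 0.414 log2 or 32.5-fold (adjusted p = 4.20e-11). In the order of its group means the neonatal hearts came first at 12.07 ± 0.58 (SD), without overlap with the next, the 3-week infarction group at 9.42 ± 0.25. That group, 6 weeks of banding (9.41 ± 0.08) and 9 weeks of infarction (9.26 ± 1.49) overlapped each other.

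Fn1 was also higher in neonatal hearts, by 4 of its 5 probe sets. X05834_at was at 12.36 and 12.03 (2.19 ± 0.236, 4.58-fold, adjusted p = 1.08e-08) and U82612cds_g_at at 10.56 and 10.43 (1.45 ± 0.118, adjusted p = 3.08e-11), both without overlap with any adult control array. U82612cds_at was higher by 0.72 ± 0.115 (adjusted p = 1.19e-05), and M28259cds_at by 0.31 ± 0.115 (adjusted p = 0.0363), a call lost without neonatal replicate 2 (adjusted p = 0.457). X05831cds_at, at 9.37 and 9.48, did not pass (0.10 ± 0.0989, adjusted p = 0.497). The 3 probe sets with the largest neonatal differences, in this order, were also the first 3 by average effect in hypertrophy.

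The Sparc probe sets other than rc_AA892248_at were higher in neonatal hearts. Y13714_at was at 13.59 and 13.28 (0.83 ± 0.223, adjusted p = 0.00431), rc_AA946313_s_at at 13.62 and 13.02 (0.96 ± 0.172, adjusted p = 5.46e-05) and rc_AA891204_s_at at 12.05 and 11.68 (1.10 ± 0.256, adjusted p = 0.00114), and on each of them both neonatal arrays lay above the highest adult control array. Without neonatal replicate 1 the calls of Y13714_at and rc_AA891204_s_at were lost (adjusted p = 0.143 and 0.0728). In contrast, rc_AA892248_at was lower, at 14.37 and 14.16 (-0.68 ± 0.163, adjusted p = 0.00153), and its call was lost without neonatal replicate 2 (adjusted p = 0.0704). The 100 brightest probe sets had a neonatal median of -0.61, and after quantile normalization, when that median was -0.09, the difference of rc_AA892248_at was -0.36 (adjusted p = 3.85e-04).

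Clu, Spp1 and Thbs4 did not share the neonatal increase. Clu was at 13.29 and 12.79, below the lowest adult control at 14.11, a difference of -1.41 ± 0.117 log2 (adjusted p = 4.50e-11) that was -1.58 after quantile normalization. Clu thus rose in infarcted hearts and was lower in neonatal hearts. The 2 neonatal arrays of Spp1, at 6.82 and 9.11, lay at the lower end and above the top of the control range, and the difference of 0.54 ± 0.487 (95% interval -0.46 to 1.53) did not pass. Thbs4, at 8.80 and 8.66, did not pass either (-0.26 ± 0.297, 95% interval -0.86 to 0.35). With the 2 vehicle arrays alone as controls, 6 of the 13 passed, and the calls of Sparc rc_AA892248_at (adjusted p = 0.208), Y13714_at (0.260) and rc_AA891204_s_at (0.0759) and of Fn1 M28259cds_at (0.400) were lost.

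**Figure D5:**
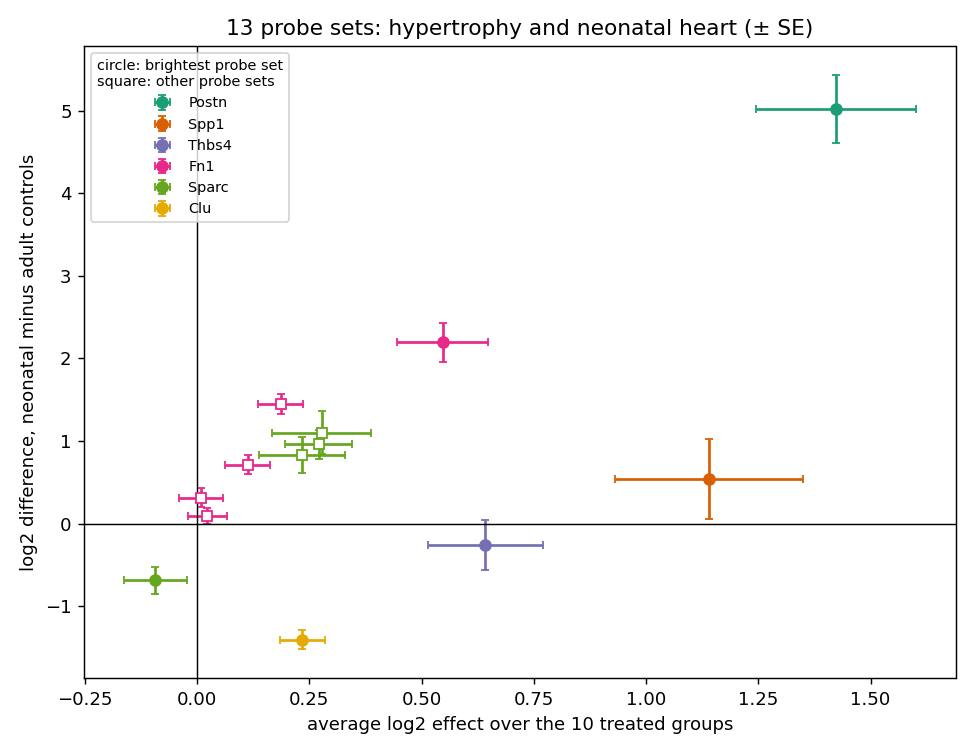
Neonatal minus adult control difference (vertical axis, log2) against the average effect over the 10 treated groups (horizontal axis, log2) for the 13 probe sets, with standard errors; circles are the brightest probe set of a gene and squares the others. Postn is highest on both axes (1.42 and 5.02), Clu is at 0.23 and -1.41, and the filled Sparc circle lies apart from the 3 Sparc squares.

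Related genes were counted by the brightest probe set of each. Over all probe sets 5.21% were called on average, 3.64% higher, and in neonatal hearts 15.5% were called higher and 17% lower. A list count near or under these shares is not a result about that list. Of 14 other matricellular genes, 3 rose on average and 1 fell, with a median of 0.13 log2 against 0.01 for all probe sets: the galectin gene Lgals1 (0.34 ± 0.0736), Mfge8, of a phagocytosis bridging protein (0.31 ± 0.0588), the calcification inhibitor Mgp (0.24 ± 0.0638) and, lower, the fibulin gene Efemp1 (-0.26 ± 0.0762). In neonatal hearts 1 of the 14 was higher, Lgals1 (0.95 ± 0.171), and 7 were lower, among them Sparcl1, a relative of Sparc (-0.91 ± 0.175), Ccn1 (-0.78 ± 0.194) and Mgp (-0.70 ± 0.149). Of 20 receptors for these proteins, Itgb1, the common beta subunit of many integrins, rose on average (0.37 ± 0.0885) and was higher in neonatal hearts (0.92 ± 0.206). Itga7, the laminin-binding partner in muscle, did not pass on average (-0.23 ± 0.0720) and was lower in neonatal hearts (-2.32 ± 0.168). The other 18 were not called in either comparison. After quantile normalization Itga7 also passed on average (-0.25, adjusted p = 0.0220).

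Of 29 structural matrix genes, 7 rose on average and 0 fell by limma, with a median of 0.10. The largest was Loxl1, a crosslinking enzyme of elastin (0.73 ± 0.120), followed by the collagen gene Col3a1 (0.50 ± 0.0769) and Bgn (0.49 ± 0.0654). In neonatal hearts 15 were higher, led by Col1a2 (1.94 ± 0.186), and 3 lower: the proteoglycan genes Dcn (-0.98 ± 0.206) and Omd, and Col2a1. Of 26 genes of TGF-beta signalling, a pathway known to induce Postn and Fn1, 3 rose on average (Tsc22d1, 0.58 ± 0.0708; the follistatin-like gene Fstl1, 0.55 ± 0.0858; the receptor Bmpr1a, 0.31 ± 0.0491) and 0 fell, with a median of 0.02. In neonatal hearts 4 were higher and 1 lower, where 15.5% and 17% of all probe sets were. Of 11 fibroblast genes, which overlap with the structural list, 5 rose on average, and 6 were higher and 1 lower in neonatal hearts. Of 12 macrophage genes 4 rose on average (among them Lyz2, 0.97 ± 0.158; the chemokine gene Ccl2, 0.45 ± 0.116; and Ctss, 0.41 ± 0.107), and 4 were lower and 0 higher in neonatal hearts, Lyz2 (-1.09 ± 0.369) among them. Of 13 cardiomyocyte genes 0 were called on average, and 12 were lower in neonatal hearts, whereas after quantile normalization 2 were lower on average and 2 in neonatal hearts. Of the 5 smooth muscle, 6 endothelial, 6 erythroid and 5 tendon and cartilage genes 0 were called on average, and 1 of each of these lists but the smooth muscle list, with 2, was called in neonatal hearts. Of 3 atrial genes Nppa, the natriuretic peptide, rose on average (1.77 ± 0.0829) and all 3 were higher in neonatal hearts. By model, 8 structural matrix genes rose after infarction and 6 in banding, where 1.96% and 5.26% of all probe sets were called. In the shunt and with either hormone 0 genes of any list were called, except 1 atrial gene in the shunt. Of all probe sets 0.0458% were called in the shunt and 0% with either hormone.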

How the data were processed

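RNA pools of rat ventricle were hybridised to Affymetrix rat genome arrays. The deposited values are linear intensities that the authors computed from the perfect-match probes with a model-based method and normalized between arrays by invariant ranks, so that array medians ran from 1002.6 to 1084.42. The number of arrays limits the precision, and the depth of a count does not apply. Genes were named from the platform annotation: 7006 of 8740 probe sets had 1 symbol, 308 had several and 1426 had none. Probe sets with several symbols were not used for members or lists.

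Values were raised to at least 16 (122 values, 0.0303%), log2 transformed and fitted with limma 3.58.1 in R 4.3.3 as 20 group means over 46 arrays, with moderated tests (lmFit, eBayes), two-sided, and Benjamini-Hochberg adjustment over all 8740 probe sets at 0.05. Contrasts were each treated group minus its own controls, means of these by model and over all 10, differences and F tests between them, and neonatal minus adult controls. The scripts were tested on simulated data. The members, the gene lists and the tests were chosen with earlier results of these data known. All 13 member probe sets are described, the brightest standing for its gene in gene lists, correlations and plots. For each list the genes named are up to 3 called in each direction with the largest effect, and for each member the 4 genes of most similar pattern. The cell type lists hold fibroblast, macrophage, cardiomyocyte, smooth muscle, endothelial, erythroid, atrial, and tendon and cartilage genes.

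Alternatives were quantile normalization, median centring, other floors, array weights, a filter on dim probe sets, own-group fits and the mean of a gene's probe sets. Other weights and sets of groups, other control groups, a replicate block and leaving out each array were also used. With Bonferroni adjustment, a rank sum test, a signed rank test and the ANOVA of the methods were run. Whether vehicle, angiotensin II and Ditpa arrays of the same number deviate together was checked. Promoters were read from RefSeq tables of build GRCr8, which held Postn, Spp1, Thbs4 and Sparc.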

Additional observations from a re-analysis of the deposited data

Results flagged for a closer look

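Each of the 13 probe sets was tested for a value far from the others in the groups of 4 arrays. These were 30 weeks of banding and both infarction times, which gave 39 tests on the same arrays. Chance alone picks out about 5% of such tests, and 2 stood out, which is about that share. In the 9-week infarction group the Spp1 value of replicate 1 had a gap to the next array of 0.870 of the group's range. In the 30-week banding group the value of Fn1 U82612cds_at on replicate 1, 10.32 against 10.13, 10.16 and 10.13, had a gap of 0.848 of the range. The other Fn1 probe set of the same accession, U82612cds_g_at, was at 9.34 on this array, within the 9.17 to 9.37 of the other 3.

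The effect on Clu differed between the 5 models (F = 11.9, adjusted p = 0.00493 by limma) and was higher by 0.85 log2 in the surgical than in the hormone models (adjusted p = 0.00242). With quantile normalization the F was 4.27 (adjusted p = 0.507) and the difference 0.30.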

How the results depend on the processing

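The increase of Postn on average and in neonatal hearts and the lower Clu in neonatal hearts kept direction and call under every alternative run. Over all 74 gene results, 4036 values kept both, 52 lost and 12 gained the call and 25 reversed. Of the counts of member probe sets called, quantile normalization gave 0 for surgical minus hormone models, 4 over the single groups, 0 between models and 1 between control groups, and median centring gave 1 between control groups. Array weights gave 8 for infarction, 1 for angiotensin II, 2 for Ditpa, 3 for surgical minus hormone, 23 over single groups, 4 between models and 2 between control groups. Leaving out the probe sets under the lower quartile of mean signal, with Postn and Spp1 among them, gave 3 for banding, 5 over single groups and 1 between control groups. Infarction arrays fitted alone gave 1. The average gave 1 with the 5 models weighted equally, 2 without banding, 4 without infarction and 4 by the rank sum test, and the neonatal count was 6 with vehicle arrays alone as controls. Leaving out single arrays gave 3 to 6 for infarction, 0 to 1 for surgical minus hormone, 3 to 12 over single groups, 0 to 2 between models, 0 to 1 between banding times and 0 to 2 between control groups. The cause of these changes was not tested beyond the fewer arrays or probe sets that some of them use.

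Reversed values were near 0 or belonged to Sparc rc_AA892248_at, Clu, Spp1 or the hormone groups. The average effect of Fn1 M28259cds_at was -0.0053 after quantile normalization, -0.0093 after median centring, -0.012 without the shunt groups, -0.013 as the median of both rank tests, -6.7e-05 with the 5 models weighted equally, and -0.022 to 0.041 on leaving out single arrays, which gave -0.0013 to 0.048 for X05831cds_at. Sparc rc_AA892248_at in banding was -0.0058 after quantile normalization and -0.012 to 0.26 on leaving out arrays. The mean of the 4 Sparc probe sets, in its place, was 0.17 on average, 0.35 in the shunt and 0.55 in neonatal hearts. Without the hormone groups the average effect of rc_AA892248_at was 0.030. Clu with angiotensin II was 0.13 after quantile normalization. Leaving out arrays gave -0.12 to 0.050 for Thbs4 with angiotensin II, -0.13 to 0.62 for Postn and -0.16 to 0.30 for Fn1 with Ditpa, and -0.60 to 1.68 for Spp1 in neonatal hearts, which was negative without neonatal replicate 2.

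Over all probe sets, 455 were called on average, against 89 with models weighted equally, 155 without banding, 234 without infarction, 117 by the rank sum and 179 by the signed rank test and 261 without vehicle replicate 1. In banding 460 became 270 with array weights and 240 in the banding arrays alone. For infarction 171 became 481 with array weights, 72 in the infarction arrays alone, 66 without replicate 2 of the 3-week sham group, 86 without replicate 5 of the 9-week sham group and 293 without 9-week replicate 4. In neonatal hearts 2846 became 1233 with vehicle controls alone and 1551 and 1742 without neonatal replicate 1 and 2. Same-numbered vehicle, angiotensin II and Ditpa arrays had correlations of -0.04, -0.06 and -0.08 between their deviations, so the numbers did not pair them, and with the replicate block 7 members were called on average, 6 after infarction, 10 in neonatal hearts and 1 between models.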
